A study of Mus musculus with 12 samples.

Results

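The 10 genes described here encode core members of the BCL2 family, which sets whether a cell starts mitochondrial apoptosis. They were taken by name from the deposited gene table, in which each of the 10 has 1 of the 43686 rows. Anti-apoptotic members (Bcl2, Bcl2l1 and Mcl1) hold the outer mitochondrial membrane intact, effectors (Bax and Bak1) open pores in it through which cytochrome c escapes, and BH3-only members (Bbc3, Pmaip1, Bid, Bad and Bcl2l11) carry stress signals to the other classes. Cardiomyocytes divide rarely after birth, so their loss by apoptosis is poorly replaced, and the family has been studied in heart failure for that reason. Much of its control acts on the proteins, through phosphorylation, cleavage, turnover and relocation, none of which is measured by RNA.

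RNA-seq was performed on the ventricular wall of 6 control and 6 mutant mice, labelled C57BL/6 and given as C57BL/6J in the paper's methods. The control mice (WT) were littermates carrying floxed Sdhaf4 alleles (Sdhaf4 fl/fl) without Cre, which the labels call wild type. The mutant mice (KO, labelled Sdhaf4-/-) carried the same floxed alleles with Ckmm-Cre, expressed from the muscle creatine kinase promoter, so deletion is directed to cardiac and skeletal muscle and the other cell types of the heart keep the gene. The labels give postnatal month 2 for all mice, whereas the paper's text gives a younger age for the sequenced hearts and its reporting summary names male mice for omics work, at ages that include about that of the labels. SDHAF4 assists the assembly of succinate dehydrogenase (complex II), and the comparison asks what its loss does to the cardiac transcriptome.

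Libraries held 23747014 to 27159228 counted reads in WT and 26542930 to 31393393 in KO. Sdhaf4 was at 25.2 ± 5.80 CPM (read counts relative to library size, scaled by TMM normalization, mean ± SD, n = 6) in WT and at 2.40 ± 0.170 CPM in KO, and the groups did not overlap. KO replicate 3 stood apart from the other KO hearts: over 1754 rows that changed strongly, its median position was 0.171 on a scale from the other KO hearts (0) to WT (1), against -0.0942 to -0.0139 for the other 5. The 9 cardiomyocyte markers with a row summed to 52300 to 56900 CPM in WT and to 44500 to 58600 CPM in KO (of total counts), with no marker at 0. The median of this sum was 54800 CPM in WT and 47900 CPM in KO, and the highest KO value was that of replicate 3. In the test described below, 5 of these 9 markers were lower in KO, 1 was higher and 3 did not pass. The 10 fibroblast markers summed to 3130 to 3710 CPM in WT and 3990 to 6430 CPM in KO, and did not overlap. By the same test 8 of these 10 markers were higher in KO and 2 lower, 1 of the 2 without overlap. Summed endothelial (3590 to 4040 CPM in WT, 3300 to 4120 CPM in KO), mural (1740 to 1980 and 1540 to 2150 CPM), macrophage (242 to 343 and 244 to 409 CPM), lymphocyte (at most 23.0 and 33.1 CPM) and erythroid markers (289 to 989 and 592 to 1260 CPM) overlapped between the groups. The 4 atrial markers summed to 155 to 421 CPM in WT and 7120 to 15700 CPM in KO, a sum in which Nppa, also a fetal gene of the stressed ventricle, was at 250.01 CPM in WT and 12594 CPM in KO, while Myl7 and Sln had too few counts to be tested. In such bulk tissue, fewer cells of a type and less RNA per cell cannot be told apart.

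All 10 members could be tested, and the KO hearts had higher levels of 6 and a lower level of 1, while 3 did not pass. The 6 include Pmaip1, which met the filter on low counts through the KO hearts, and 5 were higher with at least 1 CPM required in 6 libraries. The threshold was 0.05 for the p-value of the edgeR quasi-likelihood test, adjusted by Benjamini-Hochberg across 17155 rows. Over all rows tested, 51.1% passed, 25.6% being higher and 25.5% lower. All 3 anti-apoptotic members and both effectors rose, whereas the 5 BH3-only members divided into 1 that rose (Pmaip1), 1 that fell (Bcl2l11) and 3 that did not pass (Bbc3, Bid and Bad). The median log2 fold change was 0.22 over the members and 0.0022 over all rows tested. With the thresholds in the study's methods, which ask for an adjusted p below 0.005 together with a log2 fold change beyond 1 in either direction, Bcl2 was the member that passed. Pmaip1 passed as well with the DESeq2 test, with no filter on low counts, and without WT replicate 6 or KO replicate 3. With these thresholds in the edgeR test, 5.36% of all rows were higher and 4.87% lower, 10.2% in all. The groups did not overlap for Bcl2, Bcl2l1 and Bak1, which were higher in each KO heart, and for Bcl2l11, which was lower. Over all rows tested, 30.1% had no overlap, 14.9% being higher and 15.2% lower. The summed fibroblast markers moved with these groups too, and the median of the summed cardiomyocyte markers was lower in KO. The part of either in the members' results was not tested.

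**Figure D1:**
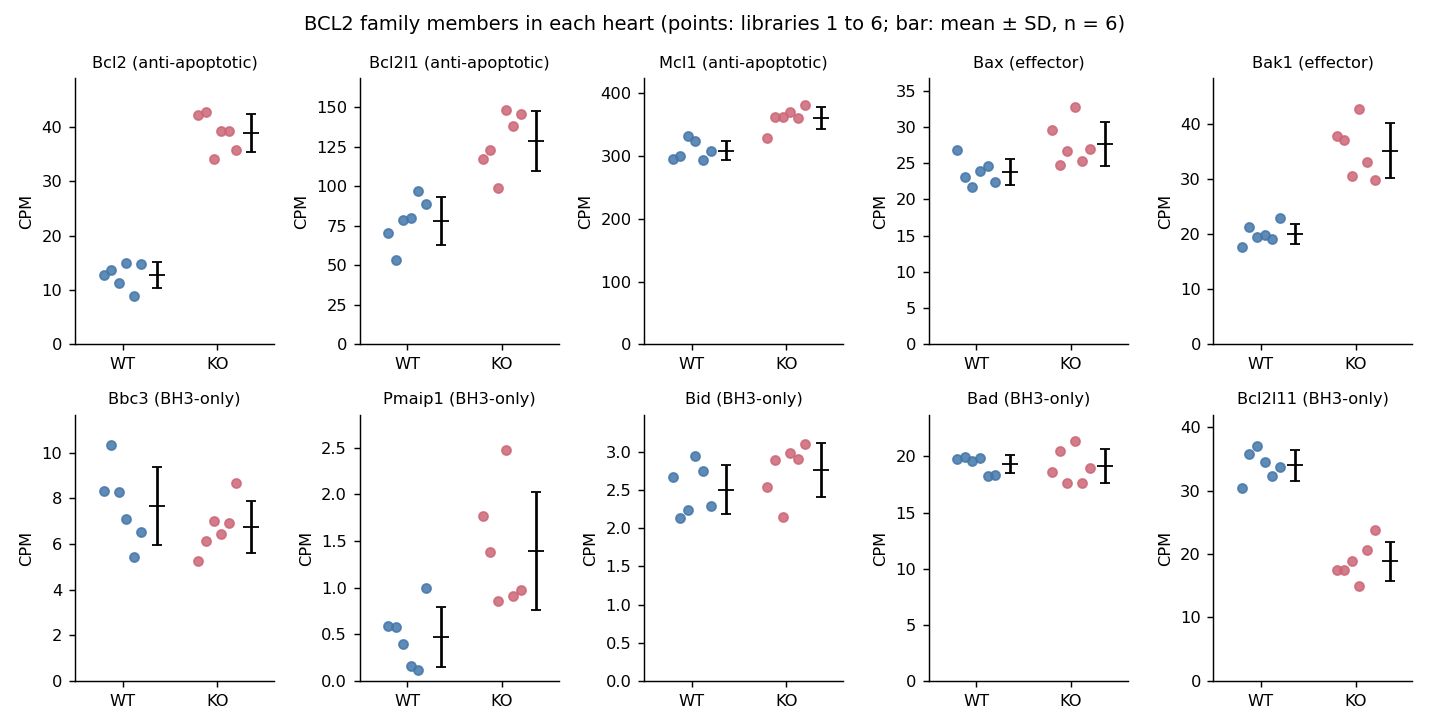
TMM-scaled CPM (vertical axis, from 0) of each of the 10 members in 6 WT and 6 KO hearts, with 1 point per library and a bar at the mean ± SD. The KO points of Bcl2, Bcl2l1 and Bak1 lie above all WT points, those of Bcl2l11 lie below them, and the groups of the other 6 members overlap.

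**Figure D2:**
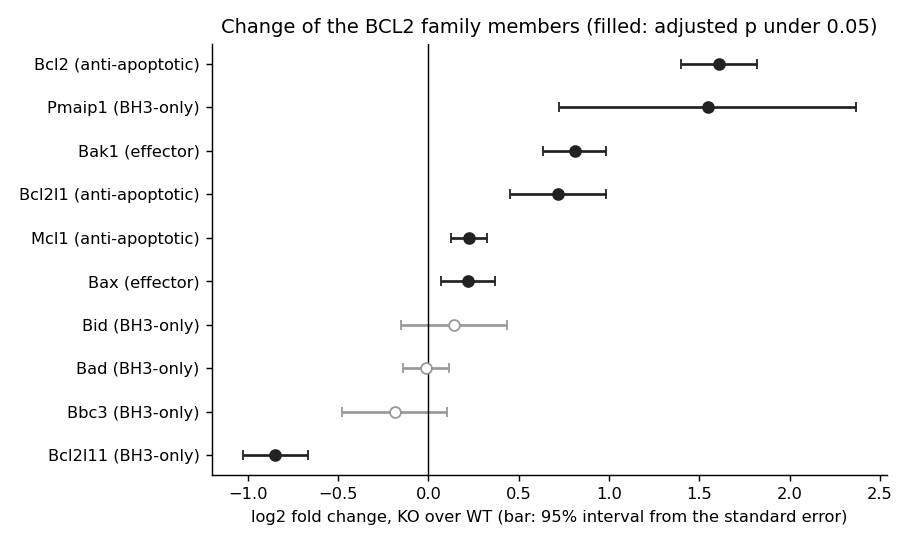
Log2 fold change of each member (KO over WT, horizontal axis), with the 95% interval from its standard error. Filled points have an adjusted p under 0.05. Bcl2 (1.61) and Pmaip1 (1.55) have the highest values, Pmaip1 with the widest interval, and Bcl2l11 (-0.85) the lowest.

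Because the 4 members whose groups did not overlap were the clearest changes, the 250 bases before an annotated start of each are shown from RefSeq (GRCm38.p6), 5′ to 3′ in the direction of the gene. For Bcl2l1 and Bcl2l11, which have several starts, the most upstream one was taken. Capitals mark matches on either strand to the hypoxia-response cores ACGTG and GCGTG, the CRE core TGACG, the FOXO site TGTTTAC and the p53 decamer, motifs of factors known to act on this family.
Bcl2 (chr1:106714291-106714540, minus strand): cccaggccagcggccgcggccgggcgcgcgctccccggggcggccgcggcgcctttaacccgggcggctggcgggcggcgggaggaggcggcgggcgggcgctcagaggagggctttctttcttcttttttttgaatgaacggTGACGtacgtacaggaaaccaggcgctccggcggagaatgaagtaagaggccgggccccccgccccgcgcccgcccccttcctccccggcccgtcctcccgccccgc
Bcl2l1 (chr2:152831729-152831978, minus strand): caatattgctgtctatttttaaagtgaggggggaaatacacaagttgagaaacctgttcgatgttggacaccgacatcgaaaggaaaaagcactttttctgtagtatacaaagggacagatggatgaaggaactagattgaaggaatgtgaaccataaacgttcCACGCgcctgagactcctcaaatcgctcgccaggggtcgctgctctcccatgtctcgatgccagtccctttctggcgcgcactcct
Bak1 (chr17:27028628-27028877, minus strand): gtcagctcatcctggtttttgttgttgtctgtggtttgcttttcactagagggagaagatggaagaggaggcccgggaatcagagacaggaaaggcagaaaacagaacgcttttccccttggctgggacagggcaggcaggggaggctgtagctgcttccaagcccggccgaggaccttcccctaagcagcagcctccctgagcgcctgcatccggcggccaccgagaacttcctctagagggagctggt
Bcl2l11 (chr2:128125788-128126037, plus strand): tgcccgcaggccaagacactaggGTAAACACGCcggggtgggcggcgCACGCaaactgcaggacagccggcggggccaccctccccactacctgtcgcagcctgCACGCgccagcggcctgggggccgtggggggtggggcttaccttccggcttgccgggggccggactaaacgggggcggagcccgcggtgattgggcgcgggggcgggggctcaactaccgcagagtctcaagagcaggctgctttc

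The Bcl2 window held 1 match, to the CRE core at positions -107 to -103 from the start, a motif present in 17.7% of 32817 such windows. The Bak1 window held no match, which says only that these letters are not in it. In the Bcl2l1 window, the match was to GCGTG (28.1% of all windows) at -86 to -82, and its other 2 starts had none. The upstream Bcl2l11 window held 3 matches to GCGTG and 1 to the FOXO site at -227 to -221, which 3.16% of all windows hold and which overlaps the GCGTG match at -222 to -218, while its other start had none. Of the remaining members, 5 were examined, which brought the total to 9 members and 15 windows. Pmaip1 was left out of this search, so nothing is said of its motifs. ACGTG (16.6% of all windows) was found at Bax and Bbc3, each time as a palindrome read on both strands. Among the 9 members examined, the p53 decamer (7.12%) was found at Bax alone, at -201 to -192. A FOXO site was also found at a Bbc3 start, at -167 to -161. Members that did not pass held the motifs shown above as well, with 6 matches to GCGTG at Bbc3 and 4 at Bad, and a CRE core at Bbc3. These are matches of letters and not evidence of binding. The shares over all windows were not matched for GC content, which had a median of 52.4% there. In the windows shown it was 74.8% at Bcl2, 72.0% at Bcl2l11, 58.4% at Bak1 and 47.6% at Bcl2l1.

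Bcl2, which encodes the founding anti-apoptotic protein of the family (MGP_C57BL6NJ_G0016770; chromosome 1, 112847969 to 113035252, minus strand, on the C57BL/6NJ assembly whose identifiers the table uses), had one of the largest changes. In 5 of 21 alternative fits, among them limma-voom and the fit without WT replicate 6, the log2 fold change of Pmaip1 was above that of Bcl2. Its level was lowest at 8.86, in the middle at 13.2 and highest at 15.03 CPM in the WT hearts. In the KO hearts the lowest, median and highest values were 34.0, 39.2 and 42.8 CPM. Each KO heart therefore stood above each WT heart, with the lowest WT value in replicate 5 and the lowest KO value in replicate 3. The means were 12.7 ± 2.34 and 38.9 ± 3.46 CPM (SD, n = 6), a 3.05-fold rise (95% interval 2.64 to 3.54). On the log2 scale this was 1.61 ± 0.11 (standard error), with an adjusted p of 5.97e-09 in edgeR's test. A log2 fold change of this size or larger was found in 2.58% of all rows tested. Without KO replicate 3 or any other single library, the log2 fold change stayed between 1.52 and 1.66. The 3 rows that overlap Bcl2 held 1 to 115 counts over all 12 libraries.

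Bcl2l1 encodes Bcl-xL, an abundant protector of the heart's mitochondria (MGP_C57BL6NJ_G0027102; chromosome 2, 161925370 to 161980067, minus strand). It ranged from 53.2 to 96.9 CPM in the WT hearts with a median of 79.3 CPM. In the KO hearts it ranged from 99.0 to 148 CPM with a median of 130.2 CPM. The groups lay close together, since the highest WT heart (replicate 5) and the lowest KO heart (replicate 3) were almost level. The rise from 78.0 ± 15.2 to 128 ± 18.9 CPM (SD, n = 6) was 1.65-fold (95% interval 1.37 to 1.98), or 0.72 ± 0.14 (standard error) on the log2 scale, with an edgeR adjusted p of 0.000603. WT replicate 5 thus had the highest Bcl2l1 and the lowest Bcl2 of the control hearts.

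Mcl1, whose short-lived protein is required for survival of cardiomyocytes, was the most abundant member (MGP_C57BL6NJ_G0028009; chromosome 3, 99975787 to 99980175, plus strand). The WT hearts had 293.6 CPM at the lowest, 304 CPM at the median and 332 CPM at the highest. Corresponding values in the KO hearts were 328, 362 and 381 CPM. KO replicate 1 fell within the WT range, and the other 5 KO hearts lay above it. The mean went from 309 ± 15.9 to 361 ± 17.7 CPM (SD, n = 6). This 1.17-fold rise (95% interval 1.09 to 1.25) was 0.22 ± 0.05 (standard error) on the log2 scale and had an edgeR adjusted p of 0.0013.

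The effectors rose to different extents. Bak1 encodes BAK, which resides in the outer mitochondrial membrane (MGP_C57BL6NJ_G0023820; chromosome 17, 27360683 to 27371210, minus strand). It was at 17.7 CPM in the lowest, 19.7 at the median and 23.0 CPM in the highest WT heart. The KO hearts had 29.8, 35.2 and 42.7 CPM, all above WT, with the lowest values in replicates 6 and 3. Means of 20.1 ± 1.84 and 35.2 ± 4.93 CPM (SD, n = 6) gave a 1.75-fold rise (95% interval 1.55 to 1.98), or 0.81 ± 0.09 (standard error) on the log2 scale, with an edgeR adjusted p of 1.03e-06. Bak1 overlaps Ggnbp1 on the opposite strand, and whether reads were counted by strand is not given in the sources used here. Ggnbp1 changed the other way, from 21.4 to 11.9 CPM (log2 fold change -0.85, adjusted p = 9.71e-08 from edgeR).

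Bax encodes the effector that moves from the cytosol to mitochondria when activated (MGP_C57BL6NJ_G0032707; chromosome 7, 47998698 to 48003901, minus strand). WT hearts ranged from 21.7 to 26.8 CPM with a median of 23.5 CPM. KO hearts ranged from 24.7 to 32.8 CPM with a median of 26.8 CPM. The ranges overlapped, and 3 KO hearts (replicates 1, 4 and 6) lay above all WT hearts. The log2 fold change was 0.22 (standard error 0.08, adjusted p = 0.0218 from edgeR), a 1.17-fold rise (95% interval 1.05 to 1.29). The call was lost without WT replicate 3 (log2 fold change 0.19, adjusted p = 0.0631) and without KO replicate 4 (0.17, adjusted p = 0.0575), both from edgeR.

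Bcl2l11 encodes BIM, a BH3-only protein that binds every anti-apoptotic member and can activate the effectors directly, and it was the member that fell (MGP_C57BL6NJ_G0026892; chromosome 2, 135559133 to 135595560, plus strand). In WT the lowest heart was at 30.4, the median at 34.1 and the highest at 37.0 CPM. In KO these values were 14.95, 18.1 and 23.8 CPM. Each KO heart was below each WT heart, and the KO heart nearest to WT was replicate 6. From means of 34.0 ± 2.39 and 18.9 ± 3.07 CPM (SD, n = 6), the level in KO was 0.555 of that in WT (95% interval 0.490 to 0.629). This was -0.85 ± 0.09 (standard error) on the log2 scale, with an edgeR adjusted p of 8.61e-07. No other row of the table overlaps Bcl2l11. Two-sided exact permutation tests on log2 CPM gave p = 0.00216, the smallest that 6 hearts against 6 allow, for Bcl2l11 and likewise for Bcl2, Bcl2l1 and Bak1, with p = 0.00433 for Mcl1 and 0.0152 for Bax.

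Pmaip1 encodes NOXA, a BH3-only protein that mainly opposes MCL1 and a classical p53 target (MGP_C57BL6NJ_G0024930). It was the least abundant member, with 3 to 26 counts in the WT libraries and 26 to 72 in the KO libraries. All 6 KO libraries but 4 of the 6 WT libraries reached 10 counts, so it passed the filter on low counts through the group in which it was high. On the CPM scale the WT hearts ran from 0.121 to 0.994 (median 0.486) and the KO hearts from 0.861 to 2.47 (median 1.18). WT replicate 6 overlapped the 3 lowest KO hearts, at 1.02 CPM of total counts with a 95% Wilson lower bound of 0.697 (counting error only), and the highest value belonged to KO replicate 4. The log2 fold change was 1.55 ± 0.42 (standard error, edgeR adjusted p = 0.00532, two-sided exact permutation p = 0.00866), which corresponds to a 2.92-fold rise with a wide 95% interval of 1.65 to 5.17. It was 1.90 without WT replicate 6 and 1.31 without KO replicate 4.

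The other BH3-only members did not pass. Bad (MGP_C57BL6NJ_G0025186; chromosome 19, 4127255 to 4137297), whose protein is held inactive by survival kinases, ran from 18.2 to 19.98 CPM in WT (median 19.7) and from 17.6 to 21.3 CPM in KO (median 18.8). Its log2 fold change was -0.01 (standard error 0.06, adjusted p = 0.867 from edgeR), and the 95% interval of the fold, 0.906 to 1.08, was the narrowest of these 3. Bad overlaps Gpr137 on the opposite strand. Bbc3 (MGP_C57BL6NJ_G0032152; chromosome 7, 14753010 to 14761597), which encodes the p53 target PUMA, lay between 5.42 and 10.3 CPM in WT (median 7.67) and between 5.27 and 8.69 CPM in KO (median 6.67), or -0.19 ± 0.15 (standard error) on the log2 scale (edgeR adjusted p = 0.313, interval of the fold 0.717 to 1.07). Bid (MGP_C57BL6NJ_G0031649; chromosome 6, 126982053 to 127008967), which carries the death receptor signal to mitochondria once caspase-8 has cut it, was at 2.13 to 2.94 CPM in WT (median 2.48) and 2.15 to 3.10 CPM in KO (median 2.89). Its log2 fold change, 0.14 ± 0.15 (standard error, edgeR adjusted p = 0.459), had an interval of the fold of 0.899 to 1.35, and it overlaps Bcl2l13, a far more highly counted row (118 CPM in WT and 119 CPM in KO). Changes within these intervals cannot be told from none at this depth and spread.

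Levels of different members were compared as FPKM, which divides the counts by a gene length. In the WT hearts the order of mean FPKM was Mcl1 (144 ± 7.30, SD, n = 6), Bcl2l1 (52.8 ± 9.99), Bax (27.3 ± 1.97), Bad (21.4 ± 0.955), Bcl2l11 (15.95 ± 1.20), Bak1 (15.4 ± 1.68), Bbc3 (7.22 ± 1.68), Bcl2 (2.55 ± 0.497), Bid (2.03 ± 0.239) and Pmaip1 (0.180 ± 0.127). The ranges of neighbours overlapped for Bcl2l11 and Bak1 and for Bcl2 and Bid, and were apart for the other pairs. In the KO hearts Bak1 (27.1 ± 4.43) moved up to rank 4, and its range overlapped those of Bax (31.9 ± 4.04) and Bad (21.2 ± 2.05). Bcl2 (7.78 ± 0.849) there reached the level of Bcl2l11 (8.85 ± 1.31) and Bbc3 (6.33 ± 0.974), and its range overlapped both. Bcl2 thus stayed far below Mcl1 (169 ± 7.95) and Bcl2l1 (87.3 ± 13.9). The authors' FPKM rests on shorter lengths than the table's length column for 8 of the 10 members (all but Bax and Pmaip1). With CPM per kilobase of the table's length, Bak1 ranked above Bcl2l11 in WT, and Bcl2 above both Bcl2l11 and Bbc3 in KO.

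**Figure D3:**
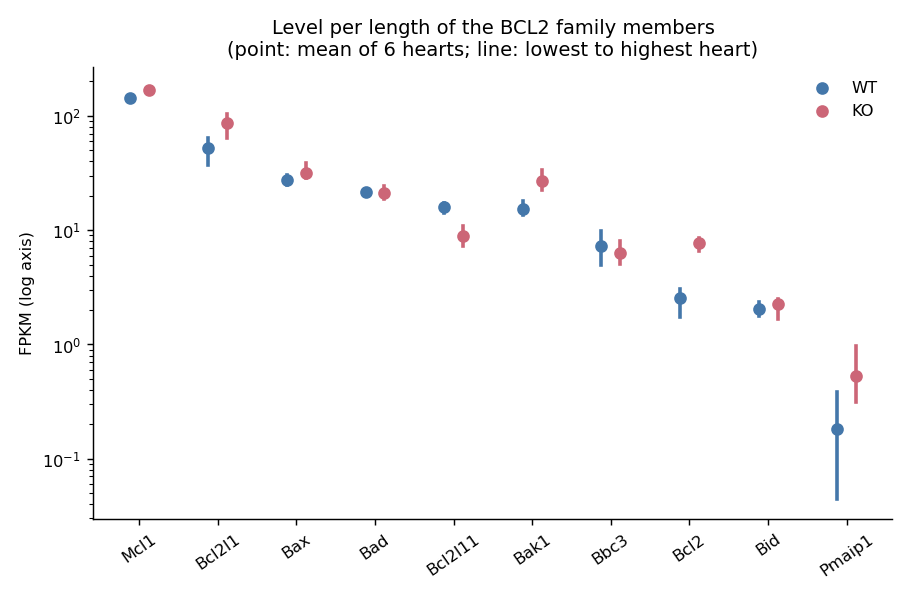
FPKM (log axis) of the 10 members ordered by their WT mean, with a point at the mean of 6 hearts and a line from the lowest to the highest heart. Mcl1 and Bcl2l1 lead in both groups, Bcl2 moves from 2.55 to 7.78 and Bcl2l11 from 15.95 to 8.85.

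The balance of the members within each heart followed from these levels and is given as a description. The ratio of Bcl2 to Bax FPKM was between 0.0625 and 0.115 in the WT hearts (median 0.0965) and between 0.208 and 0.301 in the KO hearts (median 0.239). The ratio of Bcl2 to Bcl2l11 went from 0.117 to 0.187 in WT (median 0.170) to 0.639 to 1.11 in KO (median 0.917). With CPM per kilobase of the table's length, this ratio was 0.193 to 0.309 in WT and 1.06 to 1.84 in KO, so whether Bcl2 stood above Bcl2l11 in KO depends on the length used. Bcl2l1 to Bax gave 1.36 to 2.34 in WT and 2.19 to 3.21 in KO, ranges that overlapped. With the table's lengths this ratio was 0.782 to 1.34 and 1.26 to 1.84. A change of length multiplies a ratio of 2 genes by the same factor in each heart, so it cannot alter the overlap. Bak1 to Bax was at 0.569 ± 0.0848 in WT and 0.852 ± 0.0949 in KO (SD, n = 6), and with the table's lengths at 0.310 ± 0.0462 and 0.464 ± 0.0517. Of the summed FPKM of the 10 members, the BH3-only members made up 16.2 ± 1.37% in WT and 10.8 ± 0.402% in KO, the anti-apoptotic members 69.0 ± 1.97% and 72.9 ± 1.44%, and the effectors 14.8 ± 0.940% and 16.3 ± 1.68% (SD, n = 6). The BH3-only share did not overlap between the groups (14.7% to 18.6% in WT, 10.2% to 11.4% in KO). Within this class Bcl2l11 moved most in mean FPKM, from 15.95 to 8.85, while Bad was at 21.4 and 21.2. The sum of all 10 members, by which the shares are divided, was 289 ± 10.5 in WT and 362 ± 27.3 in KO. Leaving Mcl1 out of the sum put the anti-apoptotic share at 38.0 ± 5.15% in WT and 49.1 ± 2.91% in KO (SD, n = 6).

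**Figure D4:**
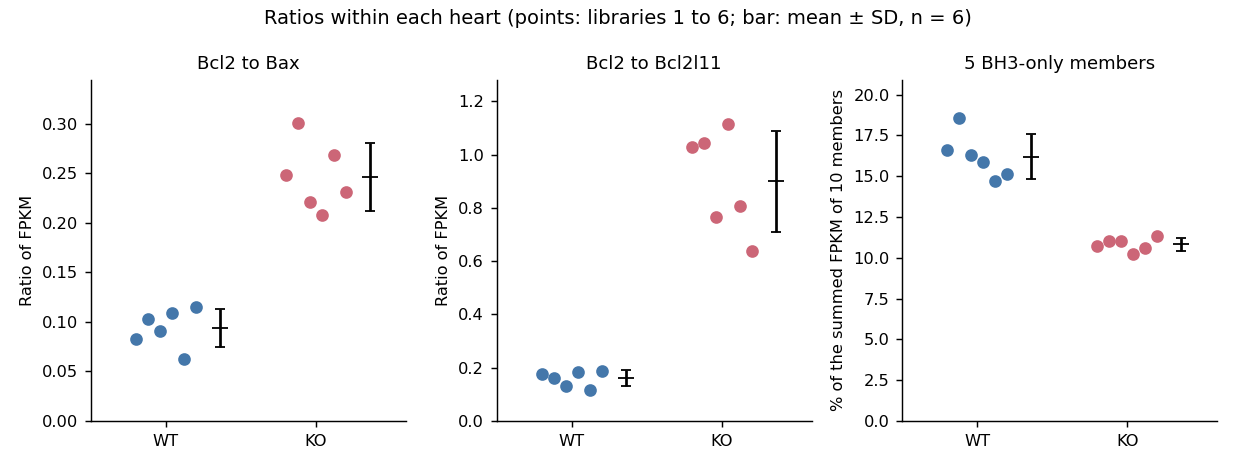
Ratios of FPKM within each heart (Bcl2 to Bax, Bcl2 to Bcl2l11) and the percentage of the members' summed FPKM held by the 5 BH3-only members, with 1 point per library and a bar at the mean ± SD (n = 6). The KO hearts lie above the WT hearts in both ratios and below them in the BH3-only share.

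Other members of the family were examined as a list of 16, of which 13 had a row and 10 were tested. Of these, 5 were higher and 4 lower in KO, with a median log2 fold change of 0.10. Among all rows tested, 25.6% were higher and 25.5% lower. Bcl2l2, which encodes the anti-apoptotic BCL-w, rose from 66.2 ± 3.06 to 85.1 ± 5.66 CPM (SD, n = 6, log2 fold change 0.36, adjusted p = 1.84e-05 from edgeR). The BH3-only genes Bik (from 8.30 to 4.01 CPM, log2 fold change -1.05, adjusted p = 2.19e-05) and Hrk (from 4.30 to 1.72 CPM, -1.33, adjusted p = 0.000288) fell past the study's thresholds (edgeR). Bik lay within a log2 fold change of 1 without WT replicate 2 (-0.97), KO replicate 4 (-0.99) or KO replicate 5 (-0.98). Bmf, a further BH3-only gene of the list, rose from 14.6 ± 2.07 to 20.2 ± 2.46 CPM (SD, n = 6, log2 fold change 0.47, edgeR adjusted p = 0.000851), and is named after its values were seen. Bnip3, a mitochondrial BH3-like protein that also serves as a mitophagy receptor, fell from 337 ± 37.9 to 195 ± 38.9 CPM (log2 fold change -0.79, adjusted p = 8.48e-05 from edgeR). The other relatives that passed are named after their values were seen. Its relative Bnip3l (0.29, adjusted p = 0.000686), Becn1 (0.19, adjusted p = 0.00123) and Bok (0.48, adjusted p = 0.00602) were higher (edgeR). Bcl2l12 was lower (-0.46, adjusted p = 0.00193 from edgeR).

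Downstream of the members stand cytochrome c, the apoptosome, the caspases and their inhibitors. The list held 18 genes, all with enough counts, of which KO hearts had 5 higher and 8 lower. Shares over all rows tested were 25.6% higher and 25.5% lower. The median log2 fold change of the list was -0.10, and none of its genes was past the study's thresholds. Casp9, the initiator caspase of the apoptosome, fell from 22.4 ± 1.19 to 18.1 ± 1.34 CPM (SD, n = 6, log2 fold change -0.31, adjusted p = 0.000656), while Apaf1, its scaffold, rose from 16.4 ± 1.78 to 20.9 ± 2.90 CPM (0.35, adjusted p = 0.00502; both edgeR). Aifm1, a flavoprotein of the intermembrane space, fell by 0.26 on the log2 scale (adjusted p = 0.000363 from edgeR). These counts were less stable than those of the members: 3 were higher without WT replicate 1, and 3 were higher and 5 lower without KO replicate 5.

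Upstream genes were examined in 3 lists. Of 16 death receptor genes tested, 6 were higher and 1 lower, with a median log2 fold change of 0.17. Among all rows tested, 25.6% were higher and 25.5% lower. Tnfrsf12a, the receptor of TWEAK, rose from 42.4 ± 10.97 to 142 ± 16.8 CPM (SD, n = 6, log2 fold change 1.74, adjusted p = 5.97e-07), Tnfrsf1a, the main TNF receptor, by 0.57 (adjusted p = 1.76e-07) and Fas by 0.36 (adjusted p = 0.00431), all from edgeR. The ligands Fasl and Tnf had too few counts to be tested.

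Among 17 genes of the p53 pathway, 11 were higher and 3 lower, with a median log2 fold change of 0.37. The shares over all rows tested were 25.6% higher and 25.5% lower. Those that fell, named after their values were seen, were Btg2 (-0.67, adjusted p = 0.00697), Eda2r (-0.58, adjusted p = 0.00733) and Ccng1 (-0.24, adjusted p = 0.00969), all from edgeR. Phlda3 (log2 fold change 1.54, adjusted p = 2.64e-08), Tigar (1.12, adjusted p = 8.35e-06), Gdf15 (2.22, adjusted p = 4.7e-05) and Perp (0.70, adjusted p = 2.29e-06) had no overlap between the groups (edgeR). Gdf15 was low throughout, at 6 to 15 counts in WT and 31 to 97 in KO. It reached 10 counts in 4 WT and 6 KO libraries and so met the filter through the group in which it was high. The members Bbc3, Bax and Pmaip1 are p53 targets as well, of which Bbc3 did not pass, Bax rose slightly and Pmaip1 rose from few counts. The 14 tested regulators of BH3-only genes and proteins had 4 higher and 4 lower, to be read beside the same shares over all rows, with a median of 0.07. Ddit3, the stress factor CHOP, rose from 15.02 ± 2.84 to 29.0 ± 2.19 CPM (SD, n = 6, log2 fold change 0.95, edgeR adjusted p = 9.39e-07). Akt2 fell by 0.40 on the log2 scale (adjusted p = 8.57e-06) and Fbxw7, which marks MCL1 for degradation, fell by 0.37 (adjusted p = 8.29e-05), both from edgeR. The other regulators that passed are named after their values were seen. Akt1 (0.27, adjusted p = 0.0039), Huwe1 (0.21, adjusted p = 0.000932) and Usp9x (0.16, adjusted p = 0.00693) were higher (edgeR). Jun (-0.40, adjusted p = 0.00244) and Foxo1 (-0.17, adjusted p = 0.0239) were lower (edgeR).

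**Figure D5:**
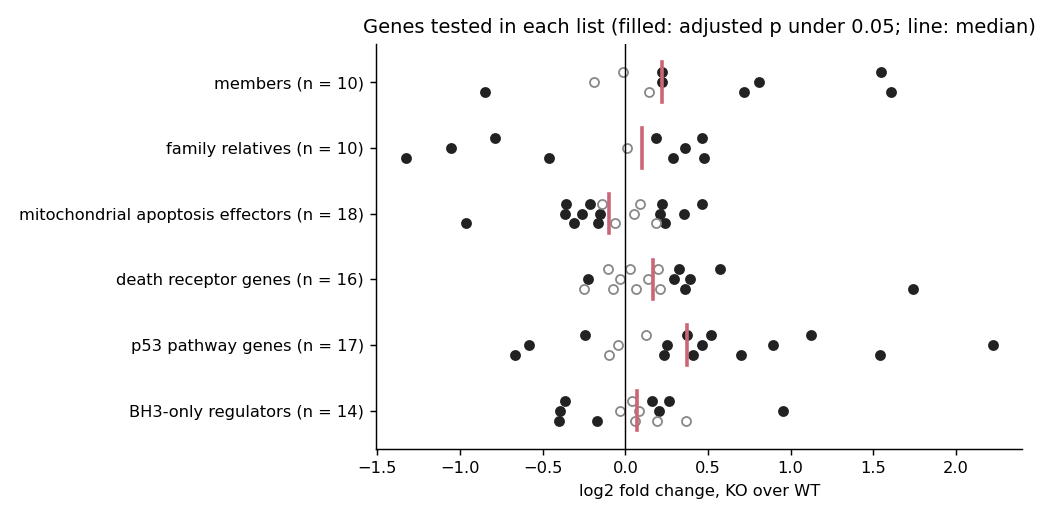
Log2 fold change (KO over WT) of each gene tested in the 10 members and 5 related lists. Filled points have an adjusted p under 0.05 and the line marks the list's median. The medians are 0.22 for the members, 0.10 for the relatives, -0.10 for the downstream effectors, 0.17 for the death receptor genes, 0.37 for the p53 pathway and 0.07 for the BH3-only regulators.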

How the data were processed

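Fresh ventricular wall was lysed in Trizol and poly-A mRNA was sequenced. The raw counts per gene and library were made by the authors with HTSeq. The FPKM per library, also deposited, divide by a gene length. The submitters' processing notes name HISAT2 2.0.5 and mm10, whereas the identifiers and positions belong to the C57BL/6NJ assembly, so promoter windows (GRCm38.p6) and gene positions are on different builds and were not combined. Signal columns deposited by the authors (group means of scaled counts) and their log2 fold changes and p-values were not used. The table's deposited length in bases served as the other length scale.

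The test was edgeR's robust quasi-likelihood test (edgeR 4.0.16, R 4.3.3) after TMM scaling, on the 17155 rows that filterByExpr retained, and p-values were adjusted by Benjamini-Hochberg across them. A standard error is the fold change divided by the root of F. Positional overlap was read from the table. Where nothing ties mice to litters, p-values measure the spread between these hearts. Wilson intervals cover counting error only. The procedure was tested on simulated counts for the KO against WT comparison (17155 genes): it recovered 32 of 67 genes changed by 0.5, 53 of 67 changed by 1 and 65 of 66 changed by 2 on the log2 scale, with 2 false calls. No other genes were changed in the simulation, whereas 51.1% of rows passed in the data. The adjustment was therefore stricter in the simulation, and its recovery and false calls do not carry over to the hearts.

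The members and lists were chosen with earlier results of these data known. Named genes were all members, Sdhaf4, and from each related list the 3 smallest p and any gene past the study's thresholds. Nppa, Myl7, Sln, Fasl, Tnf and the overlapping rows were named for context. Sept4 was matched to Septin4 by its older symbol. Alternatives were other normalizations, DESeq2 1.42.0, limma-voom (limma 3.58.1), non-robust dispersions, other filters, rows without unannotated loci, a replicate block, each library left out, and another length scale.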

Additional observations from a re-analysis of the deposited data

How the results depend on the processing

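Over 22 alternative fits, the members stayed on their side of the threshold in 217 of 219 values, the exceptions being the fits without WT replicate 3 and without KO replicate 4, which ended the call of Bax. The direction of Bad, which never passed, turned without KO replicate 3 (0.003) and without KO replicate 5 (0.008). The 17 other genes named by rule and Sdhaf4 kept direction and call in 396 of 396. Members past the study's thresholds were 2 rather than 1 with the DESeq2 test and with no filter on low counts, and 1 to 2 with each library left out (2 without WT replicate 6 and without KO replicate 3); the added member was Pmaip1. This count was tried under these settings after the data had been seen. Leaving out each library gave 3 to 6 higher and 5 to 8 lower mitochondrial apoptosis effectors. With at least 1 CPM required in 6 libraries, Pmaip1 was not tested. With CPM per kilobase of the table's length, the anti-apoptotic share was 66.6% in WT and 70.0% in KO, the effector share 19.5% and 20.3%, and the BH3-only share 13.9% and 9.70%. The labels number the hearts 1 to 6 in both groups and give no further tie between same-numbered hearts. Deviations of same-numbered hearts correlated at -0.162 to 0.0243 over all rows, which cannot exclude a shared litter or batch. With a replicate block, 6 members were higher and 1 lower. Levels below 1 CPM, as for Pmaip1 in WT, rest on few counts.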

Other observations

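The hearts differed in how far their members lay from the other genotype. KO replicate 3, which lay towards WT over the strongly changed rows, had a position of 0.540 for Bcl2l1 and 0.273 for Bak1, but 0.135 for Bcl2 and 0.0196 for Bcl2l11, where 0 is the mean of its fellow KO hearts and 1 that of WT (log2 CPM). For Bcl2l11 the KO heart nearest to WT was replicate 6, at 0.451, and the one farthest from it replicate 4, at -0.480. KO replicate 4 also had the highest Bak1, Bax, Bcl2l1 and Pmaip1 of all 12 hearts. None of these positions was tested.

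The genes of this paragraph were chosen after their values were seen. Trib3, like Chac1 a target of the stress factor CHOP, had a log2 fold change of 0.37 (adjusted p = 0.0718 from edgeR) and Chac1 one of 0.19 (adjusted p = 0.680), beside 0.95 for Ddit3 itself. Foxo3, a known activator of Bcl2l11, had a log2 fold change of 0.06 (adjusted p = 0.587 from edgeR), and Foxo1 one of -0.17 (adjusted p = 0.0239). In 54 groups of 6 values over 27 genes, no heart lay far enough from its group to pass Dixon's 95% criterion, where chance gives about 2.7. The 17 of these genes that are not members were picked for small p-values or large changes, which favours tight groups. This count therefore cannot show that outlying hearts are absent.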
